A study of Mus musculus with 12 samples.

Results

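The genes described here are those whose symbol begins with Snrp, Srsf, Prpf, Sf3a, Sf3b or Hnrnp, the core spliceosome proteins and RNA-binding splicing factors named by family. They were chosen by symbol alone, and each was represented by its brightest probe among those that name 1 gene, brightest on average over all 12 arrays. This gave 58 of the 19902 genes measured: 10 Snrp, 10 Srsf, 12 Prpf, 3 Sf3a, 6 Sf3b and 17 Hnrnp genes. The reference annotation holds 71 genes with these prefixes, and 13 have no value here. Of those, Hnrnpa1, Hnrnpa1l2-ps2, Hnrnpa3, Hnrnph3, Snrpf and Snrpn are named only by probes that also name other genes. The others, among them Srsf7, were not analysed here.

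The spliceosome removes introns from pre-mRNA and is assembled anew on each intron from small nuclear ribonucleoproteins (snRNPs). Sm proteins, encoded by Snrp genes, form a ring around the U1, U2, U4 and U5 RNAs. Sf3a and Sf3b subunits belong to the U2 snRNP and take part in branch point recognition, and many Prpf proteins build or activate the U4/U6.U5 tri-snRNP. SR proteins (Srsf) and hnRNP proteins bind exons and introns and shift which splice sites are used. Mutations in the human genes PRPF3, PRPF4, PRPF6, PRPF8, PRPF31 and SNRNP200 cause dominant retinitis pigmentosa, although these genes act in every cell.

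Expression was measured on 12 Affymetrix mouse arrays, 1 per sample of cones sorted by fluorescence. All mice were C3H/HeNCrl, carrying Pde6b rd1, a mutation of a rod phosphodiesterase subunit under which rods die early and cones degenerate later. All received an adeno-associated virus under the retina at postnatal day 21 to 28, with its transgene behind mCAR, the mouse cone arrestin promoter, so the sort rests on cells in which that promoter was active. The control transgene was EGFP, a green fluorescent protein: 4 samples came from mice aged 110 days and 4 from mice aged 220 days, with 500 cells per sample. The other transgene was eNpHR-EYFP, an enhanced halorhodopsin that pumps chloride under light, tagged with a yellow fluorescent protein: 4 samples at 165 days, with 300 cells each. The samples are called biological replicates, but the labels do not say whether each came from separate animals, so the p-values measure the spread between these samples only. Construct, age and number of sorted cells differ together between the eNpHR-EYFP and EGFP samples and cannot be told apart.

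Cone markers were present on every array: the 11 genes of a cone list summed to an intensity of 579 to 4827 on the 110-day EGFP arrays, 1016 to 2369 at 220 days and 2489 to 8419 on the eNpHR-EYFP arrays. Arr3, the cone arrestin whose promoter drove the transgenes, was lowest on replicates 1 and 4 of the 110-day arrays, at log2 levels of 4.58 and 5.29, and on replicate 1 of the 220-day arrays, at 6.72. Markers of other retinal cells were measured too. The summed intensity of 6 rod genes was 478 to 970, 356 to 656 and 598 to 1634 in the order of groups above, that of 9 Müller glia genes 359 to 1016, 716 to 939 and 875 to 2492, and that of 8 bipolar cell genes 375 to 827, 461 to 970 and 293 to 755. Between eNpHR-EYFP and EGFP arrays 3 cone genes passed as higher and 1 as lower, as did 1 rod and 1 Müller glia gene as higher and 1 bipolar cell gene as lower. The lists of 8 amacrine, 8 microglia and 6 pigment epithelium genes had 3, 4 and 2 genes called higher and none lower. Over all genes 23% were called higher and 10.1% lower. The lists are short, so these counts are not read as a difference in cell make-up. In such bulk samples fewer cells of a type and less RNA per cell cannot be told apart, and the part of these cells in the differences below was not tested. The bright end of the arrays also differed between constructs, with a 95th percentile intensity of 115 to 135 on EGFP arrays and 173 to 186 on eNpHR-EYFP arrays. The array medians were alike, at log2 levels of 2.72 to 2.83. Differences between constructs are therefore given on the deposited values and, for the genes the results turn on, also after quantile normalization, which forces all 12 arrays onto 1 distribution.

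The promoters of 4 members are shown because these members are subunits of the same tri-snRNP that are tied to human retinal degeneration, and because they behaved differently on the arrays. Each sequence is the 250 bases before the first listed RefSeq start of the gene on GRCm38.p6, written 5′ to 3′ on the gene's strand. Capitals mark every match, on either strand, to CCGGAAG (an ETS factor motif), CCAAT (NF-Y), GGGCGG (SP factors) or TAATCC (CRX, the photoreceptor homeobox factor).
Prpf3, chr3:95855886-95856135, minus strand: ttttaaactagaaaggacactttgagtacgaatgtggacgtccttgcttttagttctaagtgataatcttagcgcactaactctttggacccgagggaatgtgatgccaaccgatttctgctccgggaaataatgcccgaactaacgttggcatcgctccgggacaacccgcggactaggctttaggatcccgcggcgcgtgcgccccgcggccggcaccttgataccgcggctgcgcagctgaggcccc
Prpf31, chr7:3629735-3629984, plus strand: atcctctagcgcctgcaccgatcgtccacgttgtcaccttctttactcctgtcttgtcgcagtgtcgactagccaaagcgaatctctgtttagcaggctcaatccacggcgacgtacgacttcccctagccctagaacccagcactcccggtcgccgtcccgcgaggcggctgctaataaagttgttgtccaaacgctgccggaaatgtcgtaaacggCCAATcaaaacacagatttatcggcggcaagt
Prpf6, chr2:181601069-181601318, plus strand: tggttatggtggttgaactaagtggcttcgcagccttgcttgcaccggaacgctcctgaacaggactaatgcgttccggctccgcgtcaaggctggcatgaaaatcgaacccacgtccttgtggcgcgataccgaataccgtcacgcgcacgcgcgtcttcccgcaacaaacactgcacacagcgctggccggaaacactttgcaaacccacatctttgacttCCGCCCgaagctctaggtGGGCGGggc
Prpf8, chr11:75486527-75486776, plus strand: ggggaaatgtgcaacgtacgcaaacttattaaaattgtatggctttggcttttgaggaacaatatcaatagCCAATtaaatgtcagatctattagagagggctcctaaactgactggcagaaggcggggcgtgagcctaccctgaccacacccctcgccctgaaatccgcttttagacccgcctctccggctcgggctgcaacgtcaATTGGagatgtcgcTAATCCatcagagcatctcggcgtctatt
The Prpf3 window held no match, the Prpf31 window 1 CCAAT, the Prpf6 window 2 GGGCGG, and the Prpf8 window 2 CCAAT and 1 TAATCC. A promoter window was found for 51 of the 58 members, all but Hnrnpll, Hnrnpul2, Prpf18, Sf3b4, Sf3b5, Snrpb and Snrpd1. CCGGAAG stood in 16 of these windows (31.4%), against 7.05% of the 27025 windows of that length in the table. It was in 3 of 3 Sf3a, 3 of 4 Sf3b, 3 of 8 Snrp, 3 of 10 Srsf, 2 of 11 Prpf and 2 of 15 Hnrnp windows. GGGCGG stood in 66.7% of the members' windows against 32.9% of all, CCAAT in 45.1% against 34.5%, and TAATCC in 9.80% against 6.38%. A match is a stretch of letters and no measure of binding, which these arrays do not hold.

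The main comparison asked how these genes differed between eNpHR-EYFP cones and EGFP cones, averaged over both ages. On the deposited values most core snRNP protein genes were higher in eNpHR-EYFP cones, while SR and hnRNP genes went both ways. At log2 levels of 6 to 10 the Snrp genes rose by about as much as other genes of their level. The 2 Snrp genes at 4 to 6 rose by more. By limma with Benjamini-Hochberg adjustment over all probes at a threshold of 0.05, 22 of the 58 members rose and 5 fell. Over all genes 23% were called higher and 10.1% lower (33.1% in either direction), so the share of members that rose (37.9%) was above the background and the share that fell (8.62%) near it. That background is dimmer, with a median log2 level of 2.86 against 5.46 for members, and deposited differences rose with level. No share called among genes of like level was drawn up, so the part of level in the excess was not tested. After quantile normalization 10 members were called higher and 13 lower, against 16.1% and 12.4% of all genes (28.5% in either direction). The median member difference on the log2 scale was 0.29 as deposited, beside 0.07 over all genes, and -0.015 after quantile normalization, beside 0.02.

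**Figure D1:**
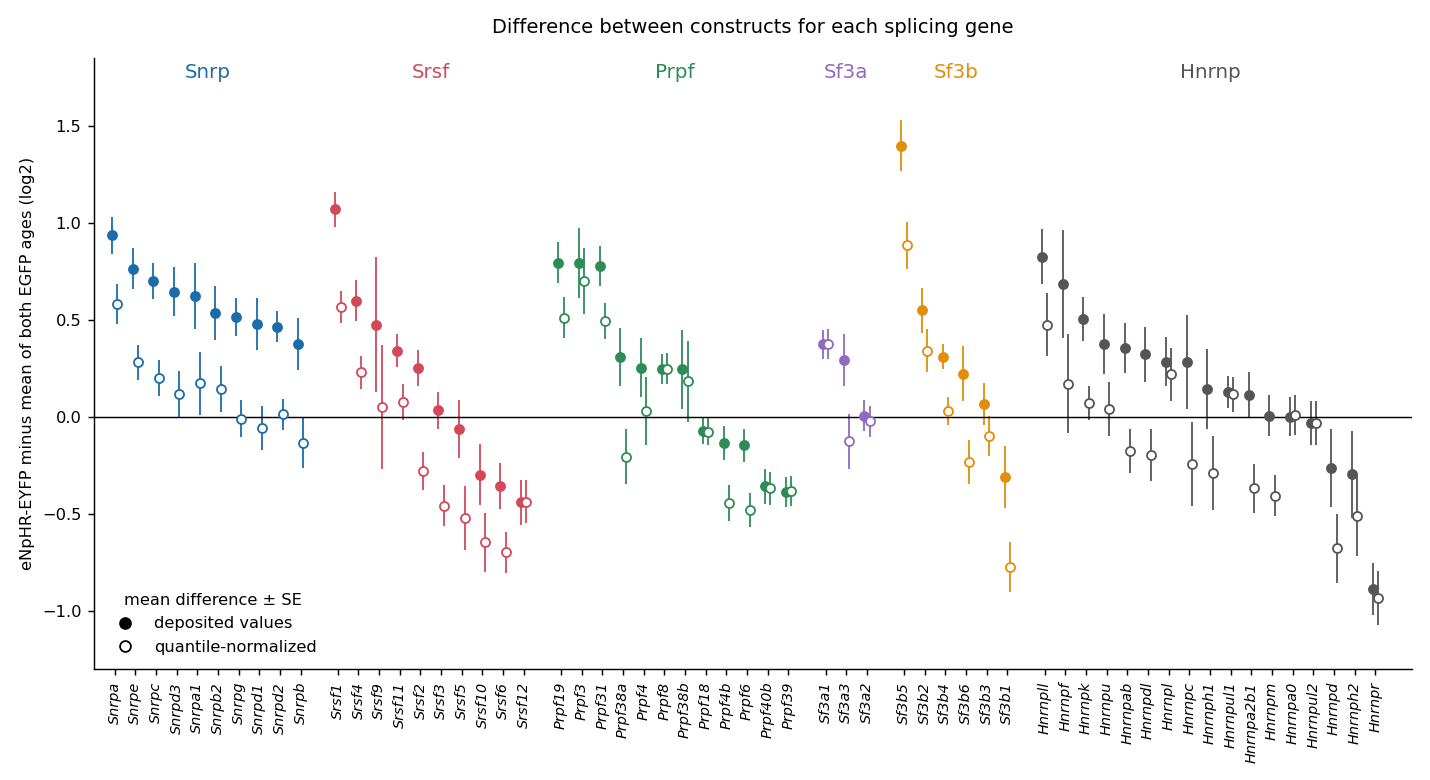
Log2 difference of each member, eNpHR-EYFP against the EGFP mean over both ages, by prefix, on deposited values and after quantile normalization; filled points are deposited values, open points quantile-normalized ones, and bars the standard error. All 10 Snrp genes lie above 0 as deposited (0.38 to 0.94), and quantile normalization moves the members down, from a median of 0.29 to -0.015.

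Called higher under both scalings were 10 members: Snrpa, Snrpe, Srsf1, Prpf3, Prpf8, Prpf19, Prpf31, Sf3a1, Sf3b2 and Sf3b5. The 5 members called lower under both were Hnrnpr, Prpf39, Prpf40b, Srsf6 and Srsf12. Another 12 were called higher as deposited only, among them 7 Snrp genes, and 8 were called lower after quantile normalization only. None was called in opposite directions by the scalings, and 23 were called by neither. On 17 members every eNpHR-EYFP array lay above every EGFP array and on 3 every one lay below, against 14.2% and 6.15% of all genes. After quantile normalization these counts were 6 and 7, against 9.9% and 8.23%. When the 3 EGFP arrays with least Arr3 were left out, 20 members (34.5%) were called higher and 4 (6.90%) lower as deposited. Over all genes these shares were 18.6% and 7.31%. After quantile normalization 6 (10.3%) were higher and 12 (20.7%) lower, against 12.3% and 9.37% of all genes. Among those no longer called higher in that last fit were Snrpe, Prpf3, Prpf8 and Sf3b2, with adjusted p of 0.139, 0.0508, 0.0925 and 0.0877.

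The size of the scaling effect rose with the level of the gene. Among the 13607 genes with a mean log2 level of 2 to 4 the median deposited difference was 0.03, and for the 14 members there it was 0.01. At 4 to 6 it was 0.34 both for all 3102 genes and for 17 members, and 0.06 and 0.04 after quantile normalization. Among the 1097 genes at 6 to 8 the medians were 0.58 for all genes and 0.36 for 19 members, and among the 318 genes at 8 to 10 they were 0.62 and 0.38 for 8 members. In both upper bins the median of the members was below that of all genes. After quantile normalization the medians in those upper bins were 0.10 and 0.11 for all genes and -0.13 and -0.15 for members. As deposited the 4 Snrp genes at 8 to 10 had a median of 0.56, close to that of all genes there, the 2 Hnrnp genes 0.20 and the 2 Srsf genes -0.01. At 6 to 8 the 4 Snrp genes had 0.57, again close to all genes, the 3 Srsf genes 0.48 and the 7 Hnrnp genes 0.32. At 4 to 6 the 2 Snrp genes had 0.74, above all genes there, the 4 Srsf genes 0.02 and the 3 Hnrnp genes 0.38. After quantile normalization these 2 Snrp genes had 0.37 against 0.06 for all genes.

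**Figure D2:**
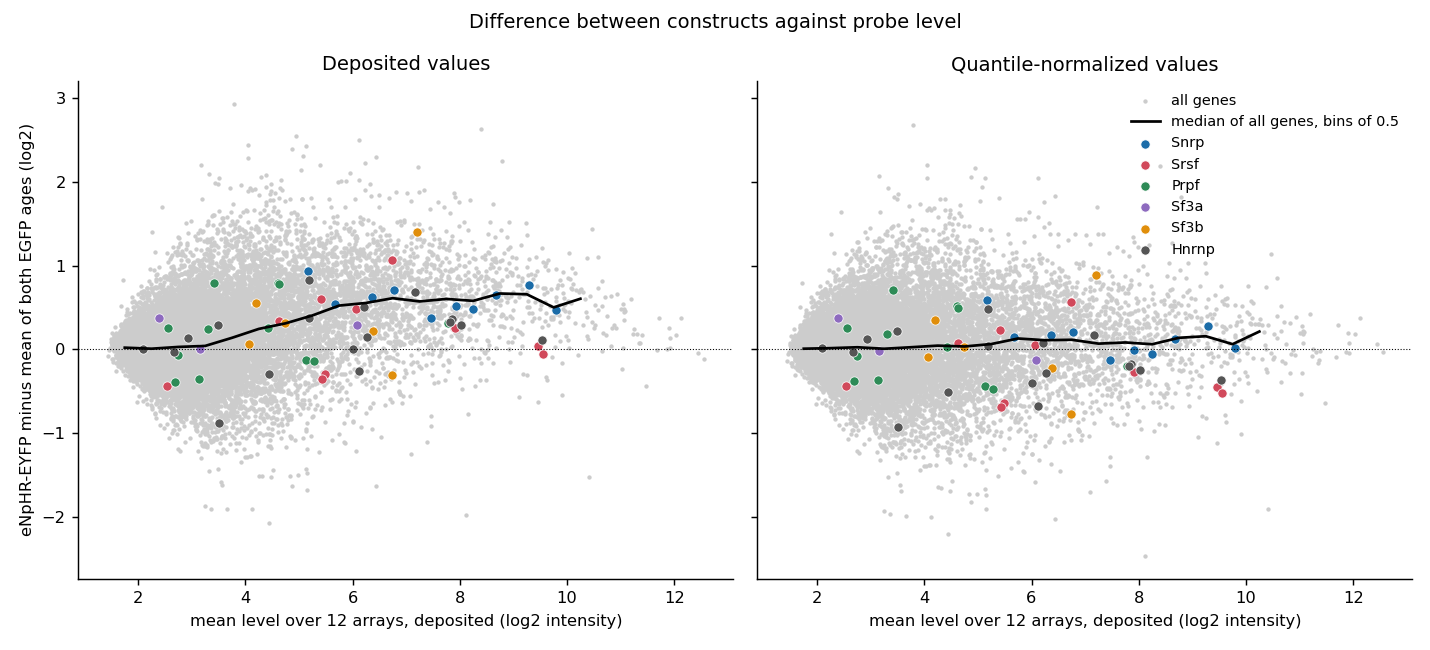
Log2 difference, eNpHR-EYFP less the EGFP mean over both ages, against mean log2 level, for members (coloured by prefix) and all genes (grey, with a line for their running median), as deposited and after quantile normalization. The median over all genes climbs from 0.03 at levels of 2 to 4 to 0.62 at 8 to 10 as deposited, and from 0.02 to 0.11 after quantile normalization.

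The 10 Snrp genes encode the Sm ring proteins and proteins specific to the U1 and U2 snRNPs. As deposited 9 of them (90%) were called higher and none lower, against 23% and 10.1% of all genes, with a median of 0.58. Their median level was 7.69 against 2.86 over all genes, and the part of level in this share was not tested. After quantile normalization 2 remained called, Snrpa and Snrpe, and the median was 0.13. Snrpa (probe 10561194), the U1 protein that binds a stem loop of the U1 RNA, stood at log2 levels of 4.72, 4.80, 4.92 and 4.93 at 110 days, 5.17, 4.91, 4.77 and 4.69 at 220 days, and 5.70, 5.83, 5.91 and 5.76 with eNpHR-EYFP. The eNpHR-EYFP arrays lay above all EGFP arrays, and the difference was 0.94 ± 0.10 (SE, n = 4 against 8), with an adjusted p of 4.9e-05 by limma. After quantile normalization it was 0.59 ± 0.10 (adjusted p = 0.00199, limma).

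Snrpe (probe 10357808), a protein of the Sm ring, read 8.95, 9.29, 9.09 and 8.79 at 110 days, 9.10, 9.17, 9.02 and 8.96 at 220 days, and 9.63, 9.86, 9.72 and 10.03 with eNpHR-EYFP, on the log2 scale. The groups did not overlap, and the difference of 0.76 ± 0.11 passed by limma (adjusted p = 0.000336) but shrank to 0.28 ± 0.09 after quantile normalization (adjusted p = 0.0378). Snrpd3, another ring protein, was at 8.37, 8.81, 8.54 and 8.33, then 8.62, 8.69, 8.07 and 8.28, and 9.12, 9.07, 9.16 and 9.11 in the same order. It did not overlap either and differed by 0.65 ± 0.13 (adjusted p = 0.00294), against 0.12 ± 0.12 after quantile normalization (adjusted p = 0.513). The other called ring proteins, Snrpd1, Snrpd2 and Snrpg, differed on their brightest probes by 0.47 to 0.52 as deposited and by -0.06 to 0.02 after quantile normalization. A dimmer Snrpg probe differed by 1.19 ± 0.13 and by 0.79 after quantile normalization (adjusted p = 7.56e-05 and 0.00152, limma). Dimmer Snrpd2 probes differed by -0.05 to 0.58 as deposited and by -0.38 to 0.09 after quantile normalization. The Snrpd2 probe at -0.38 passed as lower there (adjusted p = 0.0294, limma). Snrpa1 and Snrpb2, which bind the U2 RNA, differed by 0.63 ± 0.17 and 0.54 ± 0.14 as deposited, and by 0.17 and 0.14 after quantile normalization, where neither passed.

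Snrpb, the ring protein with the close relative Snrpn that has no value here, was the 1 Snrp gene that did not pass. It read 7.29, 7.58, 7.32 and 7.43 at 110 days, 7.39, 6.87, 7.34 and 7.54 at 220 days, and 7.93, 7.78, 7.79 and 7.38 with eNpHR-EYFP on the log2 scale, and its groups overlapped through replicate 4 of eNpHR-EYFP. Its difference was 0.38 ± 0.14 (adjusted p = 0.0583, limma) as deposited and turned to -0.13 ± 0.13 after quantile normalization (adjusted p = 0.506). It passed as deposited with the filter at the median level (adjusted p = 0.0494), with array weights (0.0366), without 220-day replicate 4 (0.0414) and without eNpHR-EYFP replicate 4 (0.0201).

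Snrpc, a U1 protein that helps to hold the snRNP to the splice site, depends on the probe that stands for it. Its brightest probe (10429081) read 6.23, 6.64, 6.71 and 6.46, then 6.59, 6.71, 6.58 and 6.46, and 7.27, 7.20, 7.23 and 7.29, a difference of 0.70 ± 0.09 (adjusted p = 0.000262, limma), and of 0.20 after quantile normalization (adjusted p = 0.133). That probe is listed among probes of another chromosome's genes, as judged by 10 neighbours on each side. The Snrpc probe listed among genes of its own chromosome (10443215) differed by -0.26 ± 0.10 (adjusted p = 0.0829), and after quantile normalization it passed as lower, at -0.38 (adjusted p = 0.019). The direction for Snrpc is therefore uncertain. Also listed among another chromosome's genes were the brightest probes of Hnrnpf, Hnrnpk, Sf3b4, Snrpd2, Srsf5 and Srsf10, 7 members in all, while 51 had theirs among their own chromosome's genes.

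**Figure D3:**
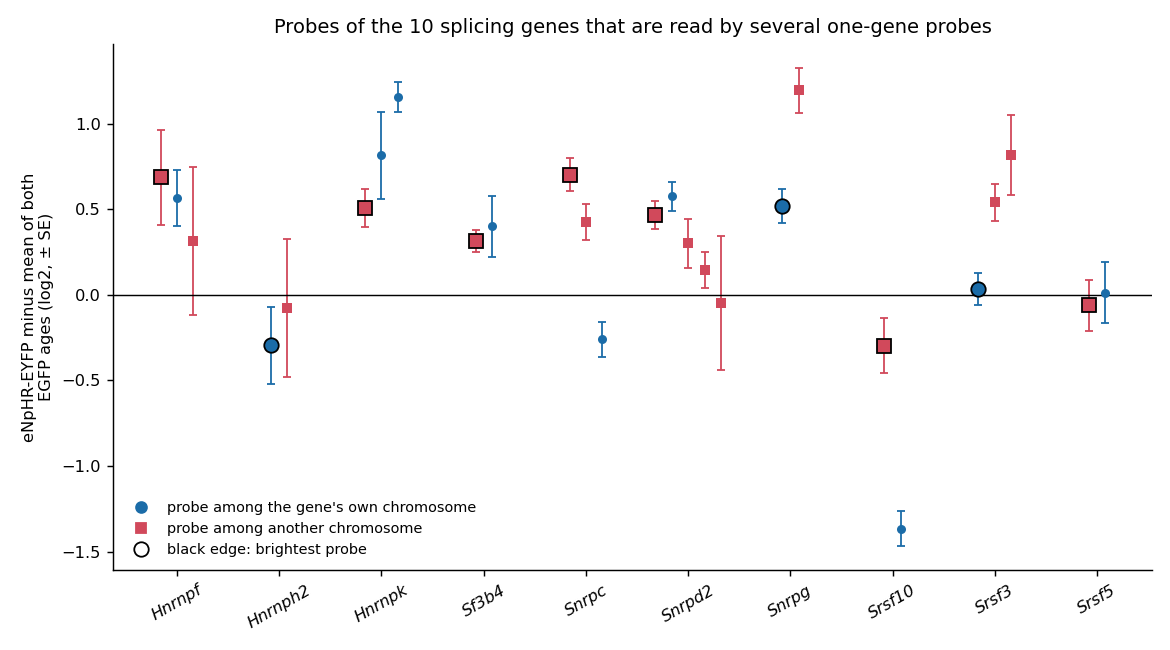
Log2 difference with its standard error, eNpHR-EYFP less the EGFP mean over both ages, for each one-gene probe of the 10 members with several probes (black edge, the brightest), marked by whether the probe is listed among genes of the member's own chromosome. The probes of Snrpc lie on both sides of 0, at 0.70 and -0.26, and the own-chromosome probe of Srsf10 lies at -1.36 against -0.30 for its brightest probe.

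Among U2 snRNP subunits, Sf3b5, a small subunit of the Sf3b complex, had the largest difference of any member. Its levels (probe 10361767) were 6.57, 7.03, 6.99 and 6.51 at 110 days, 6.70, 6.53, 6.51 and 6.98 at 220 days, and 7.94, 8.04, 8.24 and 8.30 with eNpHR-EYFP on the log2 scale. The groups were far apart, by 1.40 ± 0.13 (2.64-fold, adjusted p = 3.11e-05, limma) and by 0.89 ± 0.12 after quantile normalization (adjusted p = 0.000427). Sf3b2, a subunit that contacts the pre-mRNA near the branch point, read 4.04, 3.94, 3.96 and 3.56, then 4.21, 4.22, 4.16 and 4.09, and 4.55, 4.65, 4.84 and 4.26. All eNpHR-EYFP arrays were higher, by 0.55 ± 0.12 (adjusted p = 0.00467) and by 0.34 ± 0.11 after quantile normalization (adjusted p = 0.0432).

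Sf3b1, the scaffold subunit that is often mutated in blood cancers, did not follow. It was at 6.89, 6.81, 6.54 and 6.37, then 7.17, 7.04, 6.75 and 7.09, and 6.88, 6.57, 6.64 and 6.0 with eNpHR-EYFP, overlapping the controls. The difference was -0.31 ± 0.16 as deposited (adjusted p = 0.175, limma) and -0.77 ± 0.13 after quantile normalization (adjusted p = 0.00158). Subunits of 1 complex thus stood on both sides of 0, Sf3b5 and Sf3b2 above it and Sf3b1 below it under both scalings. Sf3b4 passed as deposited only (0.31 ± 0.06, adjusted p = 0.00393, against 0.03 after quantile normalization). Its own-chromosome probe gave 0.40 ± 0.18 (adjusted p = 0.118), and 0.25 after quantile normalization.

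Of the 3 Sf3a genes, Sf3a1 rose by 0.37 ± 0.07 (adjusted p = 0.003, limma) and by 0.38 ± 0.08 after quantile normalization (adjusted p = 0.00457). It lay at 2.14 to 2.38 on the 8 EGFP arrays and at 2.58 to 2.74 on the eNpHR-EYFP arrays, close to the array median or below it. It is 1 of 7 members whose mean level lay below the median probe, and whether such dim probes stand above background is unknown. Sf3a2 differed by 0.01 ± 0.08 and Sf3a3 by 0.29 ± 0.14, and by -0.02 and -0.12 after quantile normalization, and neither passed.

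Of the 12 Prpf genes 4 rose (33.3%) and 2 fell (16.7%) as deposited, against 23% and 10.1% of all genes (median 0.25). After quantile normalization 4 rose (33.3%) and 4 fell (33.3%), against 16.1% and 12.4% of all genes (median -0.02). The tri-snRNP genes tied to retinal degeneration went different ways. Prpf31, which binds the U4 snRNA, read 4.41, 4.68, 4.34 and 4.31 at 110 days, 4.23, 4.19, 4.50 and 4.34 at 220 days, and 5.15, 5.15, 5.37 and 4.96 with eNpHR-EYFP on the log2 scale (probe 10549552). The groups did not overlap, and the difference was 0.78 ± 0.10 as deposited (1.72-fold, adjusted p = 0.000243, limma) and 0.50 ± 0.09 after quantile normalization (adjusted p = 0.00307).

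Prpf3, a U4/U6 protein, was at 3.14, 3.25, 3.02 and 2.94, then 3.36, 2.89, 3.14 and 3.45, and 4.24, 3.23, 4.09 and 4.21 with eNpHR-EYFP (probe 10500253). Of the 4 eNpHR-EYFP arrays 3 lay above all EGFP arrays, and replicate 2, at 3.23, lay within them. The difference of 0.79 ± 0.18 passed by limma (adjusted p = 0.00688), as did that of 0.70 ± 0.17 after quantile normalization (adjusted p = 0.012). Prpf8, the large U5 protein at the catalytic center, read 2.26, 2.43, 2.46 and 2.56, then 2.56, 2.43, 2.58 and 2.56, and 2.85, 2.61, 2.79 and 2.68. Its eNpHR-EYFP arrays lay just above the EGFP arrays, by 0.25 ± 0.08 (adjusted p = 0.0357, limma) and by as much after quantile normalization (adjusted p = 0.0377). This probe lies below the median probe, and the call held in 6 of the 12 fits that left out 1 array, with adjusted p of 0.0271 to 0.111. It was lost without replicate 1 or 2 at 110 days, 2 or 4 at 220 days, or 1 or 3 of eNpHR-EYFP, and also without the 3 arrays with least Arr3 (0.24, adjusted p = 0.0777).

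Prpf6, which bridges the U5 and U4/U6 snRNPs, was at 5.37, 5.35, 5.10 and 5.20, then 5.40, 5.26, 5.39 and 5.54, and 5.06, 5.16, 5.30 and 5.20 with eNpHR-EYFP (probe 10479649). The arrays overlapped, with a difference of -0.14 ± 0.08 and a 95% interval of -0.33 to 0.04 (adjusted p = 0.229, limma), against -0.48 ± 0.09 after quantile normalization (adjusted p = 0.0026). Prpf4, the U4/U6 partner of Prpf3, differed by 0.26 ± 0.15 with an interval of -0.08 to 0.59 (adjusted p = 0.249), and by 0.03 after quantile normalization. Its arrays overlapped, from 3.93 to 4.80 with EGFP and from 4.28 to 4.81 with eNpHR-EYFP.

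The U5 helicase gene Snrnp200, which unwinds U4 from U6 and lies outside the prefixes, read 2.83, 2.74, 2.79 and 2.61, then 2.61, 2.66, 2.81 and 2.87, and 3.49, 3.38, 3.46 and 3.28 with eNpHR-EYFP. The groups were apart by 0.66 ± 0.08 as deposited (adjusted p = 0.000137, limma) and by 0.62 ± 0.08 after quantile normalization (adjusted p = 0.000336). On the EGFP arrays this probe lay near the array medians of 2.72 to 2.83, where the level against background is unknown. Cwc27, a spliceosomal cyclophilin-like protein mutated in a recessive retinal disease, differed by -0.10 ± 0.22 (adjusted p = 0.788) and by -0.24 after quantile normalization. As deposited its sign turned to 0.20 without replicate 4 of eNpHR-EYFP.

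**Figure D4:**
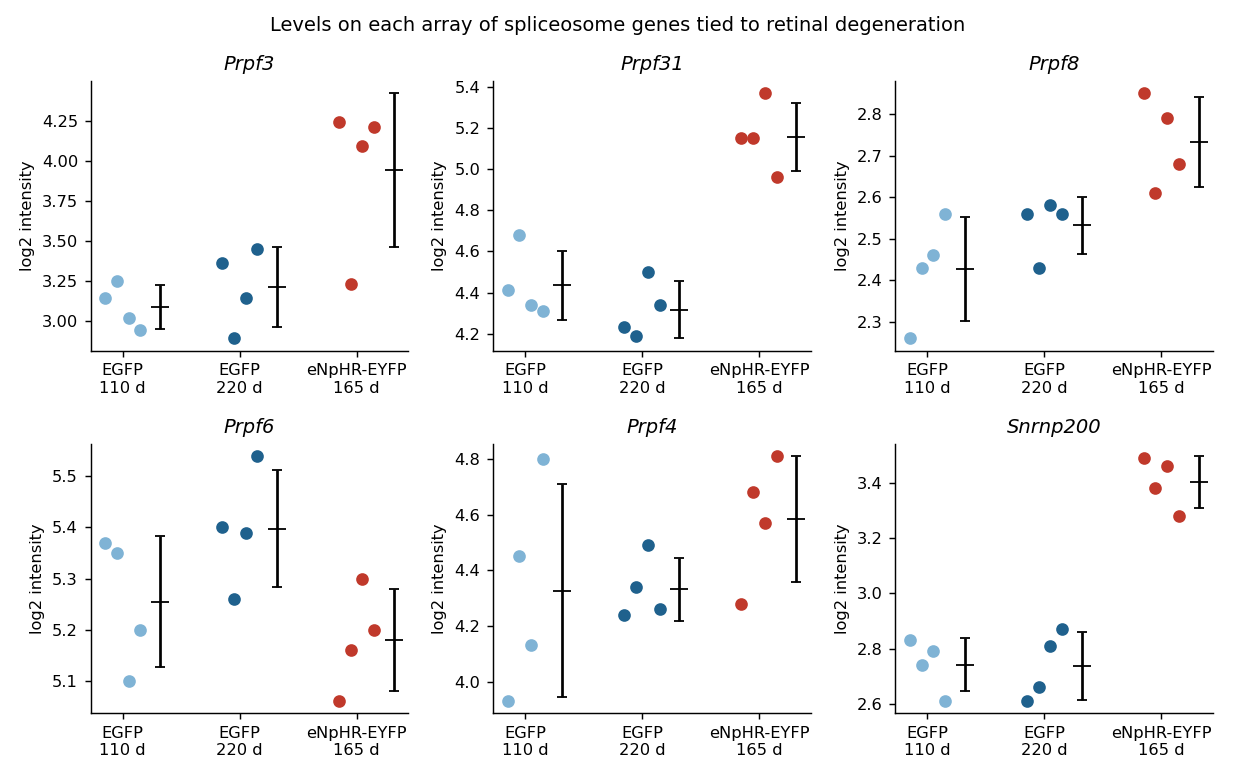
Log2 level on each of the 12 arrays of Prpf3, Prpf4, Prpf6, Prpf8, Prpf31 and Snrnp200, with group means and SD (4 arrays per group). Prpf31 and Snrnp200 are higher on every eNpHR-EYFP array than on any EGFP array, Prpf3 on 3 of 4, and Prpf6 overlaps the EGFP arrays.

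Prpf19, a ubiquitin ligase that takes part in activating the assembled spliceosome, was the other Prpf gene that rose. It was at 4.20, 4.71, 4.35 and 4.34, then 4.19, 4.44, 4.23 and 4.31, and 5.0, 5.26, 5.31 and 5.01 with eNpHR-EYFP, without overlap. The difference was 0.80 ± 0.11 (adjusted p = 0.00027, limma), and 0.51 ± 0.11 after quantile normalization (adjusted p = 0.00488). Prpf39 and Prpf40b, relatives of yeast U1 snRNP proteins, fell by 0.39 ± 0.08 and 0.36 ± 0.09 (adjusted p = 0.00323 and 0.0122) and by 0.38 and 0.37 after quantile normalization. Prpf39 lay at 2.63 to 2.91 on the EGFP arrays and at 2.32 to 2.54 on the eNpHR-EYFP arrays, a dim probe whose groups did not overlap. Prpf40b lay at 3.07 to 3.36 and at 2.72 to 3.14, overlapping through 1 array, and no longer passed without the 3 arrays with least Arr3, where the difference was about as large (-0.35, adjusted p = 0.0533). Prpf4b, a kinase that phosphorylates tri-snRNP proteins, was called lower after quantile normalization only (-0.44 ± 0.09, adjusted p = 0.00529). Prpf18, Prpf38a and Prpf38b passed under neither scaling, with differences of -0.07, 0.31 and 0.25 as deposited and -0.08, -0.21 and 0.19 after quantile normalization.

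Of the 10 Srsf genes 3 rose (30%) and 2 fell (20%) as deposited, against 23% and 10.1% of all genes (median 0.14). After quantile normalization 1 rose (10%) and 5 fell (50%), against 16.1% and 12.4% of all genes (median -0.36). Srsf1, the archetype of the SR proteins, was at 6.42, 6.20, 6.41 and 6.09 at 110 days, 6.57, 6.35, 6.61 and 6.43 at 220 days, and 7.58, 7.41, 7.47 and 7.36 with eNpHR-EYFP on the log2 scale (probe 10380210). The groups stood apart by 1.07 ± 0.09 (2.10-fold, adjusted p = 1.54e-05, limma) and by 0.57 ± 0.08 after quantile normalization (adjusted p = 0.00068). Srsf4 read 5.39, 5.37, 5.40 and 5.04, then 5.15, 5.31, 5.08 and 5.02, and 6.07, 5.77, 5.80 and 5.64. All eNpHR-EYFP arrays were higher, but the difference of 0.60 ± 0.10 (adjusted p = 0.00139) was 0.23 ± 0.09 after quantile normalization (adjusted p = 0.0696). Srsf11 rose by 0.34 ± 0.08 as deposited (adjusted p = 0.0108) and differed by 0.08 after quantile normalization.

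Srsf12, an SR protein reported to oppose other SR proteins, lay at 2.41 to 2.96 on the EGFP arrays and at 2.14 to 2.35 on the eNpHR-EYFP arrays, with a mean below the median probe and without overlap. It fell by 0.44 ± 0.11 under both scalings (adjusted p = 0.0139 and 0.0141, limma). Without the 3 arrays with least Arr3 the difference was -0.33 and did not pass (adjusted p = 0.0711). Srsf6, which acts on exon inclusion, was at 5.52, 5.97, 5.50 and 5.18, then 5.44, 5.60, 5.60 and 5.63, and 5.21, 5.24, 5.25 and 5.11 with eNpHR-EYFP. It overlapped through replicate 4 of the 110-day arrays. Its fall of 0.36 ± 0.12 (adjusted p = 0.0447) passed in 3 of the 12 fits without 1 array, with adjusted p of 0.011 to 0.104 (those without replicate 2 or 4 at 110 days or 1 at 220 days), and was 0.70 ± 0.11 after quantile normalization (adjusted p = 0.000805).

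Srsf10, an SR protein that turns into a repressor when dephosphorylated, again depended on its probe. The brightest (10407993) differed by -0.30 ± 0.16 (adjusted p = 0.194, limma), and the one among its own chromosome's genes (10509113) by -1.36 ± 0.10 (adjusted p = 8.79e-06) and by -1.51 after quantile normalization. On their brightest probes Srsf3 and Srsf5 were called lower after quantile normalization only, at -0.46 ± 0.11 and -0.52 ± 0.17, from 0.03 and -0.06 as deposited. Other Srsf3 probes, listed among another chromosome's genes, differed by 0.54 ± 0.11 and 0.81 ± 0.23 as deposited (adjusted p = 0.00299 and 0.0224, limma). After quantile normalization these differed by 0.01 and 0.77 (adjusted p = 0.97 and 0.0316). The own-chromosome probe of Srsf5 stood at 0.01 as deposited and at -0.48 after quantile normalization (adjusted p = 0.0711). Srsf2 and Srsf9 passed under neither scaling, and Srsf9 had the widest standard error of any member (0.35).

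On their brightest probes the 17 Hnrnp genes had the smallest share of calls among the larger prefixes. As deposited 2 rose (11.8%) and 1 fell (5.88%), against 23% and 10.1% of all genes (median 0.15). After quantile normalization none rose and 3 fell (17.6%), against 16.1% and 12.4% of all genes (median -0.17). Hnrnpr, which binds mRNAs that are transported in axons, was at 4.04, 3.69, 3.63 and 3.50 at 110 days, 4.10, 3.46, 4.10 and 3.93 at 220 days, and 2.98, 2.93, 2.83 and 2.94 with eNpHR-EYFP on the log2 scale (probe 10509228). The groups did not overlap, and it fell by 0.89 ± 0.13 (adjusted p = 0.000545, limma) and by 0.93 ± 0.14 after quantile normalization (adjusted p = 0.000756). Among the brightest probes of the members this was the largest fall, smaller than that of the own-chromosome probe of Srsf10. Hnrnpll, a regulator of Cd45 splicing in lymphocytes, read 4.83, 4.82, 4.73 and 5.11, then 4.74, 4.82, 4.84 and 5.35, and 5.49, 5.79, 5.58 and 6.08. All eNpHR-EYFP arrays were higher, by 0.83 ± 0.14 (adjusted p = 0.00123), and by 0.48 ± 0.16 after quantile normalization (adjusted p = 0.0526).

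Hnrnpk, a poly(C)-binding protein, rose by 0.51 ± 0.11 on its brightest probe (adjusted p = 0.00582, limma), which differed by 0.07 after quantile normalization. Its probes among its own chromosome's genes differed by 0.82 ± 0.25 and 1.16 ± 0.09 (adjusted p = 0.0323 and 9.23e-06), the latter still by 0.82 after quantile normalization. Hnrnpf did not pass on its brightest probe (0.69 ± 0.28, adjusted p = 0.0875, limma). Its own-chromosome probe passed as higher, by 0.57 ± 0.16 (adjusted p = 0.022), but differed by 0.07 after quantile normalization (adjusted p = 0.789). Hnrnpd and Hnrnpm were called lower after quantile normalization only, at -0.68 ± 0.18 and -0.41 ± 0.11. The abundant splicing regulators Hnrnpa2b1, Hnrnpc, Hnrnpu, Hnrnph1 and Hnrnpl passed under neither scaling, with deposited differences of 0.11 to 0.38. After quantile normalization Hnrnpa2b1, Hnrnpc and Hnrnph1 turned negative, at -0.37, -0.24 and -0.29, and Hnrnpu and Hnrnpl stood at 0.04 and 0.22. The median SD of a Hnrnp gene was 0.26 at 110 days, 0.17 at 220 days and 0.19 with eNpHR-EYFP, against 0.17, 0.15 and 0.17 over all genes.

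As means over the genes of a prefix, Snrp was at a log2 level of 7.34 ± 0.10 at 110 days, 7.34 ± 0.10 at 220 days and 7.94 ± 0.03 with eNpHR-EYFP (SD, n = 4 each). Srsf was at 6.24 ± 0.17, 6.30 ± 0.03 and 6.43 ± 0.12, and Hnrnp at 5.46 ± 0.22, 5.55 ± 0.05 and 5.66 ± 0.09. After quantile normalization the order of both turned, with Srsf at 6.37, 6.41 and 6.18 and Hnrnp at 5.58, 5.65 and 5.45. As deposited the 110-day replicate 4, which was low in Arr3, was the lowest array for the Snrp, Srsf, Sf3b and Hnrnp means (7.25, 5.99, 5.11 and 5.14). Differences between prefix means within an array remove what an array does to all genes alike. They do not remove a difference that rises with level, as that between constructs did. Snrp had the highest mean of the prefixes, and the part of level in its gaps was not tested. The Snrp minus Srsf mean was 1.10 ± 0.12 and 1.04 ± 0.07 at the EGFP ages and 1.51 ± 0.12 with eNpHR-EYFP. It did not overlap between constructs as deposited (0.98 to 1.26 against 1.43 to 1.70) or after quantile normalization (1.02 to 1.33 against 1.37 to 1.61). The Snrp minus Hnrnp mean was 1.87 ± 0.17, 1.79 ± 0.09 and 2.29 ± 0.07, without overlap as deposited (1.69 to 2.10 against 2.18 to 2.35) but overlapping after quantile normalization, where EGFP arrays reached 2.21 and eNpHR-EYFP arrays began at 2.07. The Snrp minus Prpf mean also stood apart as deposited (up to 3.44 against 3.59 and above) and overlapped after quantile normalization (up to 3.50 against 3.39 and above). The Snrp minus Sf3b mean overlapped under both scalings (1.75 to 2.14 against 2.06 to 2.33 as deposited). Snrp minus Srsf was thus the 1 pair of the 4 compared that stood apart under both.

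**Figure D5:**
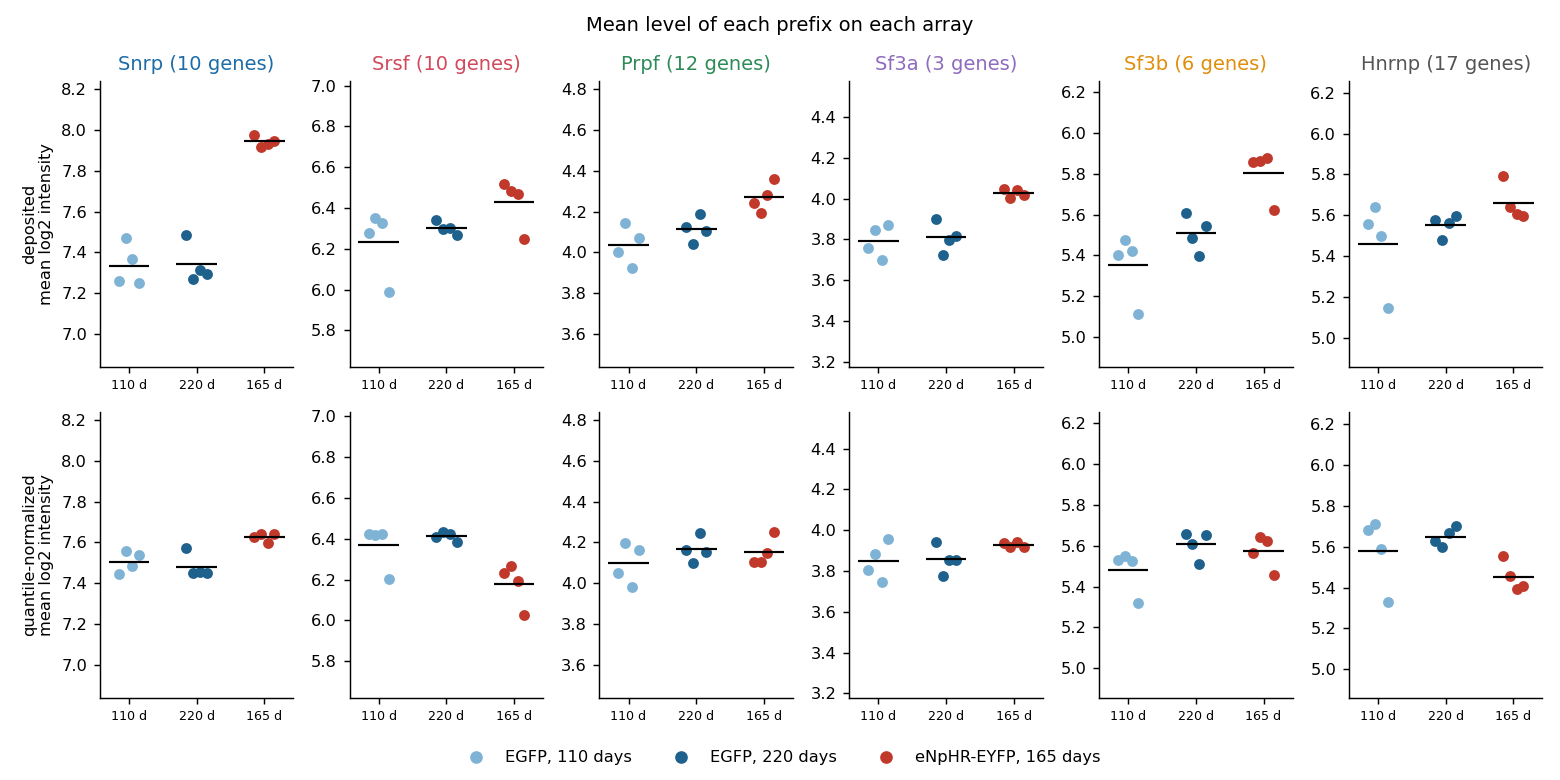
Mean log2 level over the genes of each prefix on each of the 12 arrays, by group, as deposited and after quantile normalization; lines mark group means. The Snrp mean is 7.94 with eNpHR-EYFP against 7.34 at both EGFP ages as deposited, and 7.63 against 7.51 and 7.48 after quantile normalization.

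The second comparison asked how the genes differed between 110 and 220 days in EGFP cones, on the deposited values. No member passed by limma with Benjamini-Hochberg adjustment, and 0% of all 19902 genes were called. At an unadjusted p under 0.05, 4 of the 58 members (6.90%) and 1221 of all genes (6.14%) were past it, so the members were near the background. The median difference was 0.07 (all genes 0.00), and the largest in size was 0.36, that of Sf3b1, at 0.36 ± 0.18 (adjusted p = 0.761). By smallest p the members were Prpf4b, Sf3a2, Srsf3, Srsf11 and Sf3b2. Prpf4b, the kinase gene, went from 5.10, 5.06, 4.83 and 5.05 to 5.43, 5.44, 5.15 and 5.31, a difference of 0.32 ± 0.10 (n = 4 against 4, adjusted p = 0.63, limma). Every 220-day array lay above every 110-day array for this gene. Sf3a2 went from 3.14, 3.23, 3.38 and 3.38 to 3.07, 2.98, 3.0 and 3.09, a difference of -0.25 ± 0.09 (adjusted p = 0.694). Srsf3, Srsf11 and Sf3b2 differed by 0.27 ± 0.11, 0.23 ± 0.10 and 0.29 ± 0.14, with adjusted p of 0.717, 0.731 and 0.743. On 52 members the ages overlapped, and 5 lay wholly above and 1 wholly below at 220 days, against 2.32% and 1.55% of all genes. The median standard error of a member was 0.14, which limits what 4 arrays per age can show.

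Splicing genes outside the prefixes were taken from a list of 75 other spliceosome genes, of which 71 were measured. The list had a median level of 4.75, against 2.86 over all genes. All 3102 genes at levels of 4 to 6 had a median difference of 0.34 as deposited and 0.06 after quantile normalization. As deposited 38 listed genes (53.5%) were called higher in eNpHR-EYFP cones and 2 (2.82%) lower, against 23% and 10.1% of all genes, with a median of 0.38 against 0.07. After quantile normalization 18 (25.4%) and 6 (8.45%) were called, against 16.1% and 12.4%, with a median of 0.04 against 0.02. The largest rises were those of Syf2, a factor of the activated spliceosome, at 1.28 ± 0.30 (adjusted p = 0.00777, limma), Lsm3, a ring protein of the U6 snRNP, at 1.15 ± 0.16 (adjusted p = 0.000279), and Ddx42, an RNA helicase that binds Sf3b, at 1.07 ± 0.09 (adjusted p = 1.62e-05). After quantile normalization these were 0.80, 0.69 and 1.0, and Syf2 no longer passed (adjusted p = 0.0556). The genes that fell were the helicases Ddx46 and Ddx23, by 0.77 ± 0.13 and 0.56 ± 0.10, and by 0.87 and 0.56 after quantile normalization. None of these genes was called between the ages.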

How the data were processed

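Per the labels, RNA of the sorted cells was purified with a PicoPure kit and, after biotin labelling by a whole-transcript protocol of Affymetrix, put on 1 array per sample. The values the authors deposited are linear intensities of 34760 probes on each array, between 1.7 and 10242.1. They were made with RMA, which corrects background, normalizes arrays and summarises probes, and affy, per the submitters' processing notes. Versions, the arrays normalized together, the array's genome build and any amplification of RNA from 300 or 500 cells were not given in the sources used here. For labelling, 8 ug of total RNA is stated in the labels. No detection value was used, so the level of dim probes against background is unknown, and 4 arrays per group limit the precision.

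The 8 EGFP columns hold 34729 values, 31 fewer than the eNpHR-EYFP columns. From data line 13594 on they stand beside the wrong probes, by 3 to 31 lines. That is the first line placed with confidence as moved, so the columns may leave their probes a few lines earlier. They were realigned to the mean eNpHR-EYFP profile with a forward-backward algorithm that allows lost lines only (t distribution with 3 degrees of freedom, log2 scale parameter 0.25, 0.001 per lost line, posterior from 0.999 up). This moved 21031 lines, left out 114 and kept 34615 probes for testing. Across probes, EGFP arrays correlated with eNpHR-EYFP arrays at a median of 0.421 before and 0.944 after realignment, against 0.934 over the lines that stood in place. Of the 58 members, 18 stood in place and 40 were moved. The alignment uses the likeness of both sets of arrays.

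Probes were named from the platform annotation (21640 name 1 gene, 1321 several, 11799 none); 21553 matched RefSeq's GRCm38.p6 annotation. Log2 values, computed from the deposited intensities with no pseudocount, were fitted with limma 3.58.1 in R 4.3.3: 1 model of 3 groups over all 12 arrays, two-sided, Benjamini-Hochberg adjustment over all tested probes, threshold 0.05. Intervals are at 95%. The fit was tried on simulated arrays. The realignment was tried on eNpHR-EYFP arrays with lines removed at random, aligned to other arrays of that construct. That trial did not cover the difference between constructs. No pair of arrays was identical. The replicate numbers did not pair the samples: correlations of same-numbered deviations ran from -0.04 to 0.14, and 2 of 12 were over 0.1.

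The members and lists were chosen with earlier results of these data known. Named genes are up to 4 called members per prefix and direction by size (or the smallest p where none was called), the 5 members of smallest p between ages, the genes tied to retinal disease, Snrpb, members whose call turns, and up to 3 called genes per direction from each outside list. Other members named were chosen after their values were seen. Promoter sequences come from RefSeq (GRCm38.p6). Alternatives were quantile normalization, median centring, a filter at the median level, a pseudocount of 16, array weights, a trended robust prior, the mean of a gene's probes, lines in place only, the arrays compared only, the replicate block, and leaving out each array. Protein sequences were not used here.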

Additional observations from a re-analysis of the deposited data

Results flagged for a closer look

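Of 126 groups of 4 arrays (named genes in each group), 7 held an array whose gap to its nearest neighbour, over the group's range, was above the 95% critical value of Dixon's test. Chance gives about 1 such group in 20. Prpf3 was low on eNpHR-EYFP replicate 2, at a log2 level of 3.23 against 4.09 to 4.24 on the other arrays of its group. Hnrnpll was high on 220-day EGFP replicate 4, at 5.35 against 4.74 to 4.84. Srsf6 was low on 220-day replicate 1, at 5.44 against 5.60 to 5.63. Prpf40b and Prpf8 were low on 220-day replicate 2, at 3.20 against 3.35 to 3.36 and at 2.43 against 2.56 to 2.58. Prpf4b was low on 110-day replicate 3, at 4.83 against 5.05 to 5.10. Srsf4 was low on 110-day replicate 4, at 5.04 against 5.37 to 5.40.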

How the results depend on the processing

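The counts of members called between eNpHR-EYFP and EGFP, 22 higher and 5 lower with a median difference of 0.29, depended on the scaling. Quantile normalization gave 10 and 13 with a median of -0.015, the replicate block with quantile normalization 10 and 14 with -0.015, and, chosen after seeing the data, quantile normalization without the 3 EGFP arrays lowest in Arr3 gave 6 and 12 with -0.044. The replicate block alone gave 21 and 5 with a median of 0.29, against 22.3% and 9.27% of all genes. The filter left 51 members, of which 3 were lower. Lines in place held 18 members, with 6 higher and 1 lower. For the filter, lines in place, block with quantile normalization and fits without 1 array, no share over all genes was drawn up. A pseudocount of 16 gave a median of 0.20. Quantile normalization also moved the members without overlap from 17 above and 3 below to 6 and 7, the other spliceosome genes from 38 and 2 to 18 and 6, and the tissue splicing regulators from 12 and 6 to 6 and 11. The cause was not tested. Leaving out each array gave 20 to 23 members higher and 4 to 6 lower (median 0.25 to 0.32), 17 to 21 above and 3 to 4 below without overlap, 29 to 37 and 2 to 3 other spliceosome genes, and 9 to 14 and 5 to 6 tissue regulators. Between the ages no member was called in any fit tried. Among named genes, Snrpb turned to -0.13 with quantile normalization, to -0.13 with the block added, and to -0.12 with quantile normalization and without the low Arr3 arrays; Snrpc turned to -0.26 on its own-chromosome probe, chosen after seeing the data; and Cwc27 ran from -0.32 to 0.20 over the fits without 1 array, turning sign without eNpHR-EYFP replicate 4. Over the named genes' construct differences, 864 alternative values kept direction and call, 52 lost the call, 10 gained one and 5 turned.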

Other observations

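Regulators of tissue-specific splicing, a list of 54 genes of which 52 were measured, was also compared between eNpHR-EYFP and EGFP cones. As deposited 12 were called higher (23.1%) and 6 lower (11.5%), near the 23% and 10.1% of all genes, with a median of 0.12 against 0.07. After quantile normalization 6 (11.5%) and 11 (21.2%) were called, against 16.1% and 12.4% of all genes, with a median of -0.09 against 0.02. Rbfox1, a neuronal splicing factor, rose by 1.91 ± 0.26 on the log2 scale (adjusted p = 0.000282, limma) and by 1.66 ± 0.24 after quantile normalization. Msi2, an RNA-binding protein with a role in photoreceptor splicing, rose by 0.96 ± 0.10, and Srpk1, a kinase of SR proteins, by 0.96 ± 0.20, and after quantile normalization by 0.77 each. Elavl2, a neuronal RNA-binding protein, fell by 0.92 ± 0.11 and by 0.93 ± 0.11 after quantile normalization, and Nova2, a neuronal splicing factor, fell by 0.59 ± 0.12 and 0.64 ± 0.12. Tial1, an RNA-binding protein of U-rich introns, fell by 0.55 ± 0.12 (adjusted p = 0.00588) and by 0.82 ± 0.12 after quantile normalization. The neuronal genes Rbfox1, Elavl2 and Nova2 thus went both ways, and the part of other retinal neurons in these differences was not tested. Between the ages none of these genes was called by limma.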
